A study of Mus musculus with 4 samples.

Results

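The Myc locus and the gene desert after it were examined in mouse pre-B acute lymphoblastic leukemia cells, by the called ChIP-seq peaks of PHF6, H3K27ac and H3K27me3 on mm9 chromosome 15 between 61.3 and 63.9 Mb. A peak counted as a member when its summit lay in this window of 2.6 Mb. There were 74 members of 115753 called peaks: 40 of 77749 PHF6 peaks, 27 of 32388 H3K27ac peaks and 7 of 5616 H3K27me3 peaks. The window was set by position and no measured value entered the rule, but earlier results of these data were known when it was chosen.

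All libraries came from C57BL/6J leukemia cells that carried BCR-ABL1, the fusion tyrosine kinase of Philadelphia chromosome leukemia, on a p19 null background. The study's 4 libraries were ChIPs for PHF6, H3K27ac and H3K27me3 and an input DNA library, which was not analysed here. Each antibody had 1 library, so values have no replicate error and no p-value was computed. How many cultures, clones or mice stood behind the cells is not stated in the labels.

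Myc encodes a transcription factor that drives cell growth and division, and its level is raised in many blood cancers. Pvt1, the next annotated gene after Myc in RefSeq, makes a long noncoding RNA and harbours enhancers. Beyond Pvt1 lies a gene desert whose enhancers act on Myc over long distances, with different elements active in different tissues. Those near its far end, up to 1.7 Mb downstream of Myc, are known from blood stem and progenitor cells and from leukemia. H3K27ac marks active promoters and enhancers, H3K27me3 is the mark of Polycomb repression, and PHF6 is a zinc finger protein of chromatin whose gene is mutated in human leukemias.

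Gene positions of build mm9 were not used here, so peaks were placed by their distance from 61.82 Mb, a Myc position rounded to 10 kb. Peaks with a summit within 5 kb of it are called peaks at Myc, and no peak was assigned to Pvt1. By gene order in GRCm38.p6, the protein-coding genes after Myc are Gsdmc, Gsdmc2, Gsdmc3 and Gsdmc4, which encode gasdermins, then Cyrib, a regulator of the GTPase Rac1, and Asap1. Whether peaks near the far end of the window lie at the starts of these genes was not determined. For the same reason the label of a pre-B cell could not be checked against marker genes. No sequence is shown for Myc or Pvt1.

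By H3K27ac peak bases, the largest acetylated part of the window held no PHF6. Of the 27 H3K27ac peaks, 9 lay together 1.62 to 1.74 Mb downstream of Myc, and a PHF6 peak was called on 0 of these 9. This stretch was picked for its lack of PHF6, so its count is a description. Myc itself carried both H3K27ac and PHF6, and so did the tallest acetylated sites, those near Myc and those at the far end. Over the window 11 of 27 H3K27ac peaks held PHF6 (40.7%, 95% exact binomial interval 22.4 to 61.2), sharing at least 1 bp, against 71.7% of the whole H3K27ac list. Outside the stretch 11 of 18 H3K27ac peaks held PHF6, and the other 7 without PHF6 lay there. Much of the gap between the window and the list thus comes from the stretch picked for its lack of PHF6. The intervals cover counting error only, and neighbouring peaks are not independent.

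**Figure D1:**
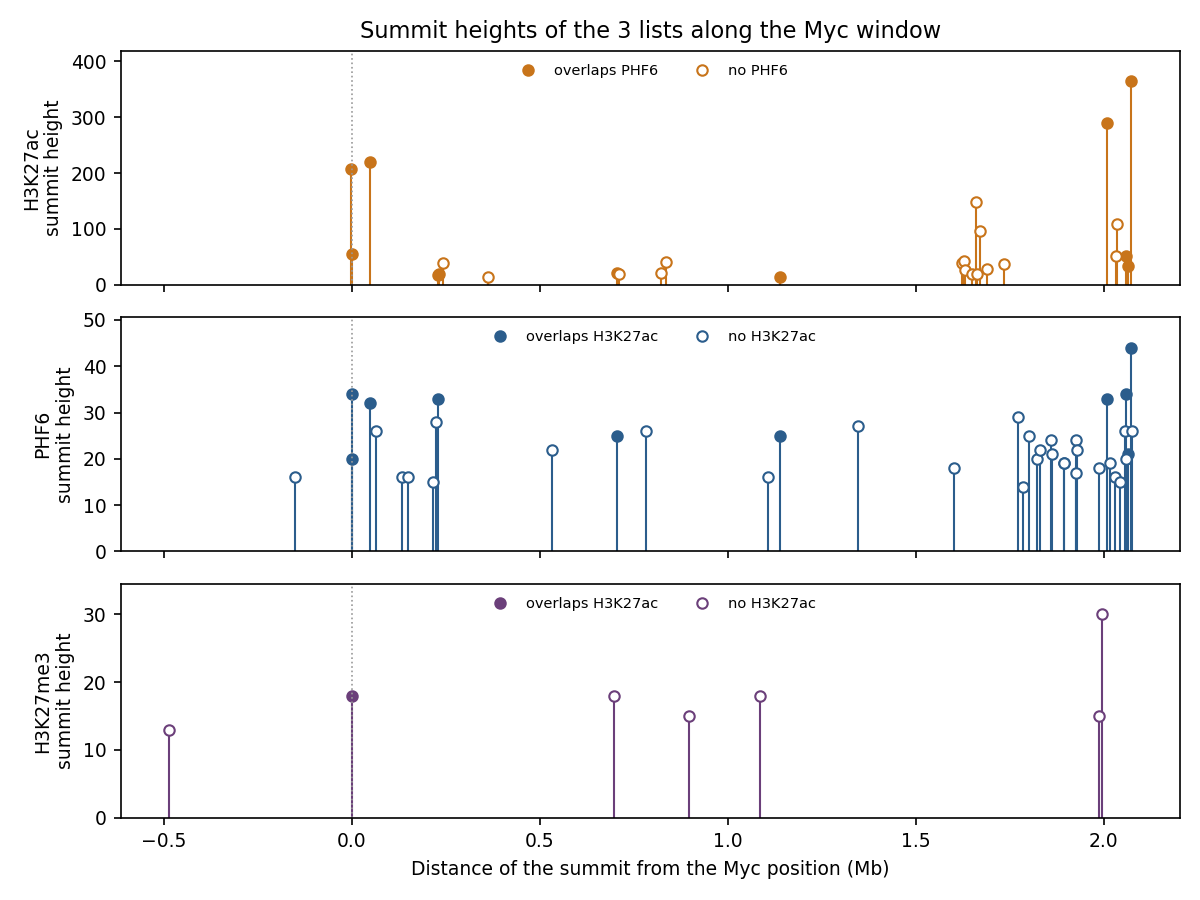
Summit height of each called peak (vertical axis, deposited signal, a separate scale for each list) against its distance from the Myc position in Mb (horizontal axis, dotted line at Myc). Filled points overlap a peak of the other list named in the legend and open points do not: the 9 open H3K27ac points 1.62 to 1.74 Mb downstream reach a height of 148 and stand over a part of the PHF6 panel with no points.

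PHF6 peaks were sparser in the window than in the genome. The window held 15.4 PHF6 peaks per Mb (95% counting interval 11.0 to 20.9), against 36.0 on chromosome 15 and 29.3 in the genome. The window lies in band qD1, one of the bands of darkest stain, which cover 836 of the genome's 2650 Mb. Over all such bands PHF6 stood at 17.1 peaks per Mb, inside the window's interval. H3K27ac stood at 10.4 peaks per Mb (6.84 to 15.1), against 7.64 in the darkest bands and 12.2 in the genome. H3K27me3 stood at 2.69 per Mb (1.08 to 5.55), against 1.57 and 2.12. Median heights of the members were near those of the lists. The PHF6 peaks had summit heights of 14 to 44 with a median of 22, equal to that of the list. Heights ranged from 14 to 364 for H3K27ac (median 39, list 35) and from 13 to 30 for H3K27me3 (median 18, list 16). Tall H3K27ac peaks were fewer than in the list, with an upper quartile of 75.5 against 173. Summit height is the deposited signal at the summit. It is not scaled between libraries, so heights were compared within 1 list only.

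At Myc, a broad acetylated peak ran from 61814872 to 61820248. It was 5.38 kb wide, wider than 98.1% of the list, with a height of 207 and a score of 3100. Scores of 3100 or more, here called the score ceiling, were given to 25.5% of the H3K27ac list, the largest being 3233. PHF6 covered most of the acetylated peak, from 61815673 to 61820198, as a single peak of 4.53 kb. It was the widest PHF6 peak of the window (percentile 98.9 of the list by width), with a height of 34 (percentile 90.4) and a score of 909, the highest PHF6 score in the window. Its summit did not coincide with that of H3K27ac: the PHF6 summit was at 61819771 and the H3K27ac summit at 61817330, 2.44 kb apart.

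A second set of peaks followed directly and was the only place in the window where all 3 lists met. H3K27ac was called from 61820646 to 61821683 (height 55), PHF6 from 61820600 to 61821603 (height 20) and H3K27me3 from 61820430 to 61821845 (height 18, score 188). The PHF6 and H3K27ac summits were 62 bp apart, and the H3K27me3 summit lay 383 bp from that of H3K27ac. In the H3K27me3 list 931 of 5616 peaks met both other lists, as did 1 of the 7 in the window. Peak lists do not show whether marks of activity and repression share a nucleosome, a chromosome copy or a cell. A background that the libraries share at this site was not tested.

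Joining neighbouring H3K27ac peaks no more than 12.5 kb apart, a span often used to group enhancers, gave 15 clusters. Of these, 8 were single peaks. PHF6 overlapped an H3K27ac peak in 7 of the 15 clusters (46.7%, 21.3 to 73.4), against 76.6% of 17585 clusters in the genome. With a joining gap of 25 kb it was 6 of 10 (60%, 26.2 to 87.8), an interval that takes in the 79.0% of the genome at that gap. Clusters are numbered here from Myc outward, and their ranks are by H3K27ac peak bases among all clusters of the genome.

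**Figure D2:**
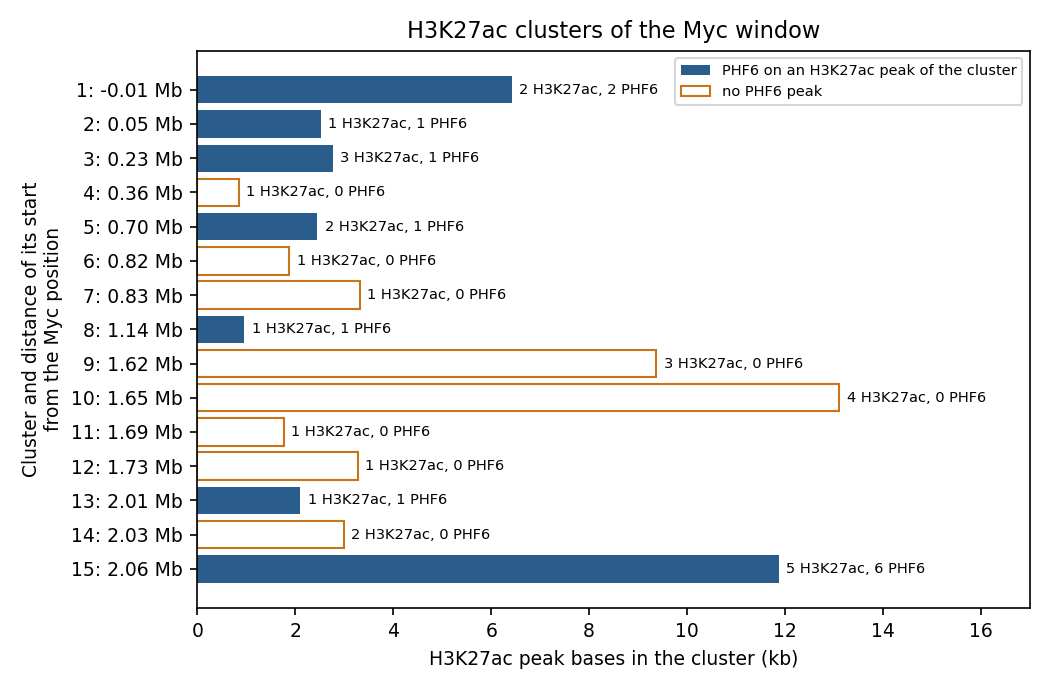
H3K27ac peak bases in each of the 15 clusters (horizontal axis, kb), ordered by the distance of the cluster's start from the Myc position (vertical axis, Mb), with the numbers of H3K27ac and PHF6 peaks in the cluster's span written beside each bar. Filled bars hold PHF6 and open bars do not: the longest bar, at 1.65 Mb with 13.1 kb, is open.

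Close to Myc, PHF6 marked each strong site. Cluster 1, the pair of H3K27ac peaks at Myc, covered 6.42 kb (rank 1803) and held 2 PHF6 peaks. Cluster 2 was a single H3K27ac peak from 61868958 to 61871483, 49.0 kb downstream, with a height of 219 and a score at the ceiling. It carried a PHF6 peak of height 32 whose summit was 118 bp from that of H3K27ac. This was the tallest acetylated site within 2 Mb after Myc. The next PHF6 peak, 65.4 kb from Myc (height 26), had no H3K27ac.

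Between cluster 2 and the distal clusters acetylation was sparse, with heights of 14 to 41 against a list median of 35. Cluster 3, from 62049444 to 62062071 (229 to 242 kb downstream), held H3K27ac heights of 18, 20 and 39. A single PHF6 peak of 2.05 kb and height 33 spanned the lower pair, while the tallest of the 3 had none. Cluster 5, 704 to 711 kb downstream, had H3K27ac heights of 21, with PHF6 of height 25 on it, and 19, without PHF6. Cluster 8, 1.14 Mb downstream, was an H3K27ac peak of height 15 under a PHF6 peak of height 25. At these 3 low sites PHF6 ranked higher in its list than H3K27ac did in its own: percentiles 89.2, 68.7 and 68.7 for PHF6, against 15.9 to 27.2 for the H3K27ac peaks it overlapped at clusters 3 and 5 and 4.52 at cluster 8. The sites were grouped for low H3K27ac, so its low percentiles are given by the choice. Over the whole list, acetylated PHF6 peaks were also taller than the others, with medians of 29 and 20. The contrast is thus a description of these sites.

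Clusters 4, 6 and 7, also between Myc and the distal clusters, were acetylated without PHF6. Cluster 7, from 62654438 to 62657752, was a broad H3K27ac peak of 3.31 kb (height 41, score 1153) whose nearest PHF6 summit was 54.7 kb away. Cluster 6, which ended 12518 bp before it and so fell just outside the joining gap, had a height of 22 and no PHF6. Cluster 4, a peak of height 14 at 363 kb, also had none.

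The distal acetylated stretch began 1.62 Mb downstream of Myc. It consisted of clusters 9 to 12, which together spanned 113 kb from 63441760 to 63555126 and covered 27.5 kb with H3K27ac peaks, 44.9% of all H3K27ac peak bases in the window (61.3 kb). Cluster 9, from 63441760 to 63453181, held 3 peaks with heights of 40, 42 and 27 and covered 9.37 kb (rank 1061). Cluster 10, from 63468275 to 63492067, held 4 peaks with heights of 19, 148, 19 and 96 and covered 13.1 kb (rank 628), the most of any cluster in the window. By summed height it ranked 5060, with 282, and the whole stretch of 9 peaks summed to 457. Cluster 15 at the far end summed to 529, which counts H3K27ac peaks past the end of the window. Its peaks inside the window had heights of 51, 33 and 364, and by these alone it does not exceed the stretch. Together with clusters 13 (289) and 14 (160), also at the far end, it does exceed the stretch by summed height. Cluster 11, from 63509818 to 63511583, had a height of 28, and cluster 12, from 63551845 to 63555126, a height of 38. The peaks were broad rather than tall: 8 of the 9 were wider than the list median of 1484 bp, and the widest reached 5.14 kb. Their position, up to 1.74 Mb from Myc, takes in the distance at which blood enhancers of Myc are known.

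Neither PHF6 nor H3K27me3 was called in this stretch. The nearest PHF6 peaks stood outside it, at 63420642 to 63421889 (height 18) and at 63591711 to 63592326 (height 29), which left 170 kb between them. Distances from the 9 H3K27ac summits to the nearest PHF6 summit ran from 21.6 to 81.4 kb with a median of 47.3 kb. Over all 9175 H3K27ac peaks without PHF6 the median was 10.8 kb. The nearest H3K27me3 summits were 253 to 363 kb away.

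Such a stretch was uncommon in the lists. Among 77728 intervals between neighbouring PHF6 peaks, 13 (0.0167%) enclosed 9 or more H3K27ac peaks without PHF6, and this one ranked 6 by the H3K27ac bases enclosed. Only 6196 of the intervals enclosed any H3K27ac peak without PHF6. Of the 3246 intervals at least as long, 11 (0.339%) enclosed 9 or more. Clusters as large usually held PHF6. It was present in 96.7% of the 628 clusters with at least the bases of cluster 10, leaving 21 without, and in 95.8% of the 1634 clusters with 4 or more peaks, leaving 69 without. The stretch and its thresholds were chosen after its values were seen, so these shares describe it and are not a test. An uncalled peak means that no site passed the threshold of the list, and PHF6 binding below it was not detectable.

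**Figure D3:**
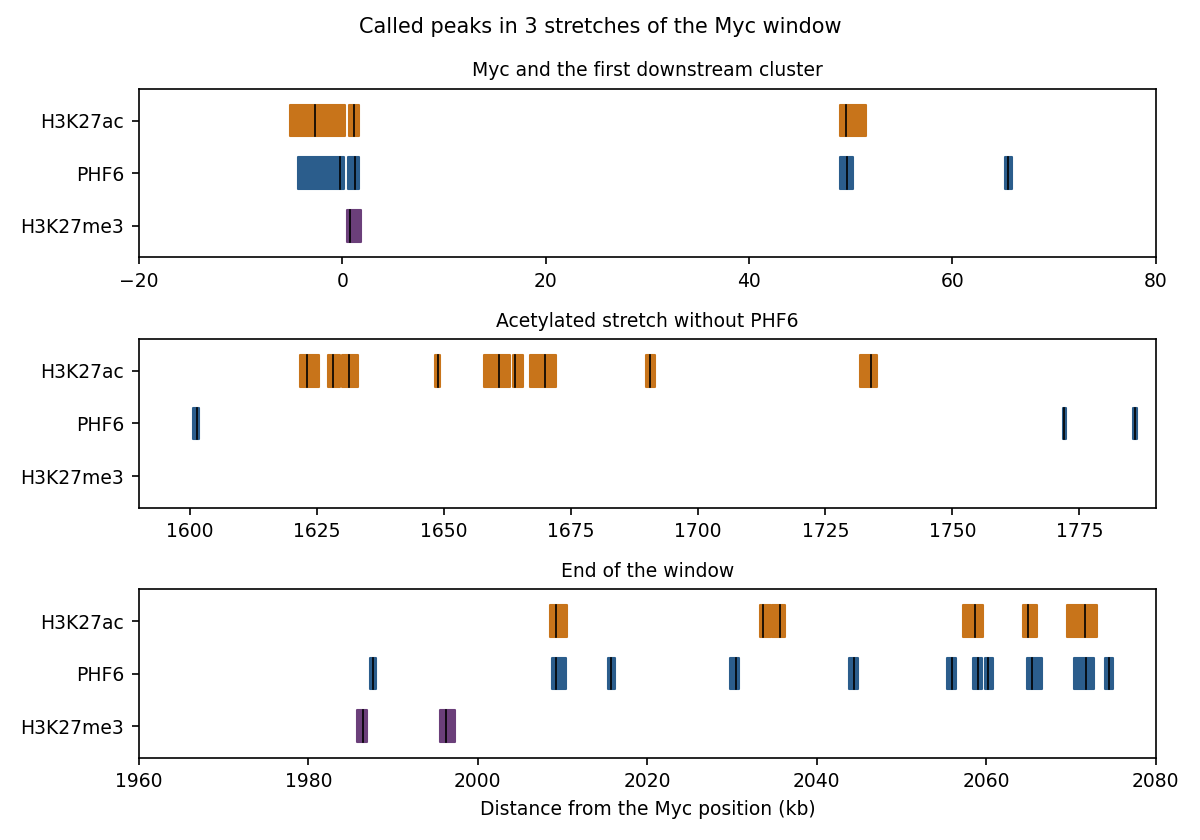
Called peaks as boxes, with black lines at summits, in rows for H3K27ac, PHF6 and H3K27me3, against distance from the Myc position in kb (horizontal axis). At Myc the 3 rows have boxes, in the middle panel only the H3K27ac row has boxes between the PHF6 peaks at either side, and at the far end PHF6 boxes lie on and between the H3K27ac boxes.

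Immediately beyond, PHF6 was called without H3K27ac. Between the end of cluster 12 and the start of cluster 13, over 273 kb, 13 PHF6 peaks were called. These clusters are neighbours, so the interval between them holds 0 H3K27ac peaks by definition. It was picked after its values were seen, for having the most PHF6 peaks of such intervals in the window. The 13 PHF6 peaks were low, with heights of 14 to 29 and a median of 21, and in total covered 11.2 kb. Of 32367 intervals between H3K27ac peaks, 1.79% held at least 13 such PHF6 peaks, as did 11.1% of the 2015 intervals at least as long. These shares rest on another list and another count than those of the acetylated stretch, so they are not compared with them. The same interval held 2 of the 7 H3K27me3 peaks, at 63805764 to 63806968 (height 15) and 63815564 to 63817312 (height 30, score 471). The latter was the tallest H3K27me3 peak of the window. A PHF6 summit of height 18 lay 1.17 kb from the former without overlap.

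At the far end, about 2 Mb from Myc, H3K27ac and PHF6 coincided again at some sites. From 2.0 Mb to the window's end, 4 of 6 H3K27ac peaks held PHF6, but only 4 of 10 PHF6 peaks overlapped H3K27ac. Cluster 13, from 63828475 to 63830573, had an H3K27ac height of 289 and a PHF6 peak of height 33, with summits 12 bp apart. Cluster 15 began at 63877269 and ran past the end of the window to 63910930. Counted to that end, with peaks outside the window, it held 5 H3K27ac peaks, 4 of them with PHF6, and covered 11.9 kb (rank 732). Its peak at 63889511 to 63893090 had the tallest H3K27ac summit of the window, 364 (percentile 99.0 of the list), over the tallest PHF6 summit, 44 (percentile 97.2), 84 bp away. Cluster 14 lay between them with H3K27ac heights of 51 and 109 and no PHF6 peak, the closest PHF6 summit being 3.21 kb away. Since the starts of the gasdermin genes, Cyrib and Asap1 were not placed in mm9, clusters 13 to 15 cannot be assigned to Myc.

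By H3K27ac height, PHF6 was present at the tallest members and at 7 of the other 23. All 4 window peaks of height 200 or more held PHF6, where the whole list gave 95.5%. At heights of 100 to 199 PHF6 was on 0 of 2, against 74.2%, and at 50 to 99 on 2 of 4, against 53.6%. At 20 to 49 it was on 3 of 11, against 57.1%, and below 20 on 2 of 6, against 78.1%. The 9 peaks of the distal stretch all fall below height 200, and without them the 4 classes from 100 to 199 downward held PHF6 on 0 of 1, 2 of 3, 3 of 6 and 2 of 4 peaks. Of 5 window peaks at the score ceiling, 4 held PHF6, against 95.1% of 8251 in the list. The exception was the tallest peak of cluster 10.

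**Figure D4:**
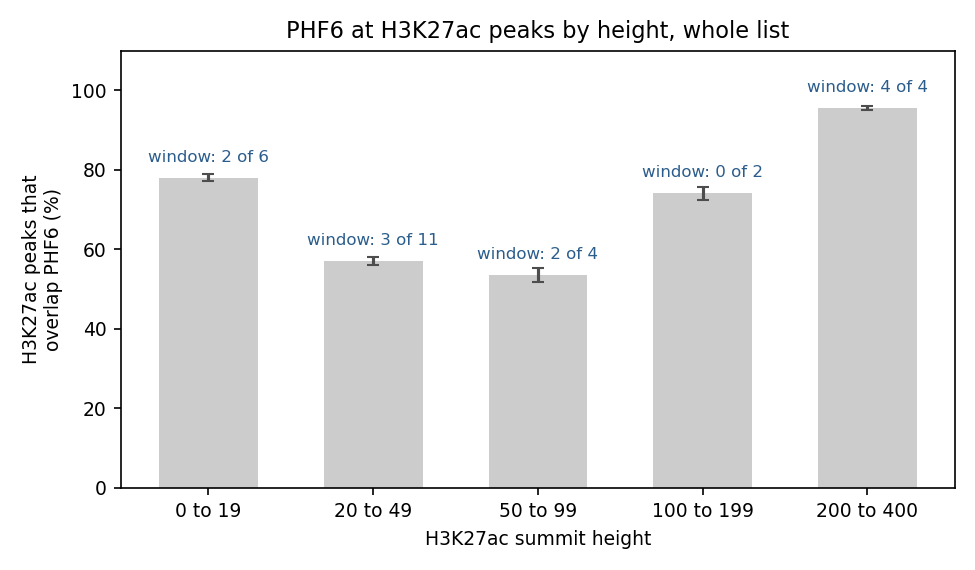
Share of all H3K27ac peaks that overlap PHF6 (vertical axis, percent) by class of H3K27ac summit height (horizontal axis), with 95% exact binomial intervals and, in blue, the counts for the 27 peaks of the Myc window. The window holds 4 of 4 in the tallest class and 0 of 2 in the class below it.

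Seen from PHF6, 10 of the 40 peaks overlapped H3K27ac (25%, 12.7 to 41.2), close to the 30.3% of the whole list. The acetylated PHF6 peaks had heights of 20 to 44 with a median of 32.5, and the other 30 had heights of 14 to 29 with a median of 20. The ranges overlapped between 20 and 29. The difference of the medians was 12.5 (interval 1.0 to 14.0). This interval is over peaks of 1 library, so it holds no spread between libraries, and neighbouring peaks are not independent. In the window shortened by 0.1 Mb at each end, where 6 acetylated peaks were left, it was 7.5 (-1.0 to 13.0), an interval that includes 0. The whole list gave medians of 29 and 20. Summits of the 10 acetylated peaks lay a median of 115 bp from the nearest H3K27ac summit (12 to 1381 bp), against 108 bp in the list. The 30 others lay 1.55 to 207 kb from the nearest H3K27ac summit with a median of 59.9 kb, where the list gave 17.8 kb.

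H3K27me3 was scattered. Apart from the peak at Myc and the pair near the far end, it was called at 61334333 to 61335150, upstream of Myc (height 13), and at 698 kb (height 18), 898 kb (height 15) and 1.09 Mb (height 18) downstream. PHF6 overlapped 1 of the 7 (14.3%, 0.361 to 57.9), against 26.0% of the list, and H3K27ac the same 1, against 21.0%. Conversely, 1 of 40 PHF6 peaks met H3K27me3 (1.88% in the list), as did 1 of 27 H3K27ac peaks (3.58% in the list). The interval is too wide to tell the window from the list. Upstream of Myc, from the window's start to the peaks at Myc, the lists held 1 PHF6 peak (height 16, 151 kb before Myc), 0 H3K27ac peaks and this 1 H3K27me3 peak.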

How the data were processed

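ChIP-seq peak and summit lists of 3 libraries were used as deposited. Bowtie2, SAMtools and MACS 1.4.0 with build mm9 are named in the submitters' processing notes, without roles. List names give a threshold of 1e-6 and mark the PHF6 and H3K27ac lists, not the H3K27me3 list, as called without the local background (lambda). Each deposited peak has a score (smallest value 60) and each deposited summit a signal, here the summit height (largest value 400). Both are the authors' own values per peak. Read totals are not known, so depth is unknown.

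Window, Myc position and joining gap came from a written rule, and named peaks were those nearest Myc, the 5 tallest per list, all H3K27me3 peaks, and the 10 largest clusters plus other features chosen after their values were seen. Members and lists were chosen with earlier results of these data known. Overlap meant at least 1 bp. Intervals of shares and densities are 95% exact binomial or Poisson. Overlap and joining routines were tested on simulated lists with known answers and returned them. Bands came from circlize 0.4.16, chromosome lengths from GenomeInfoDb 1.38.1 (R 4.3.3), and the rest from Python 3.11.15 (pandas 2.3.3, numpy 2.4.6, matplotlib 3.10.9, scipy 1.17.1). RefSeq gene order is from GRCm38.p6. Alternatives were a score of at least 100, other overlap rules, joining gaps of 5 and 25 kb, ranking by summed height and a window shortened by 0.1 Mb at each end.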

Additional observations from a re-analysis of the deposited data

How the results depend on the processing

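Of 34 alternative values, 28 stayed within the counting interval or within 1.5 times the value. Most were counts, shares, densities, ranks or distances, which have no sign to change. The other overlap rules left the shares of H3K27ac and PHF6 peaks that overlap unchanged. The share of H3K27ac peaks with PHF6 (40.7%) stood at 33.3% both in the shortened window and with a minimum score of 100. The genome rank of the leading cluster (628) was 406 with a joining gap of 5 kb, 345 with 25 kb and 1019 by summed height. With the 25 kb gap it spanned 63441760 to 63511583, with 8 H3K27ac peaks and 0 PHF6 peaks on them, and by summed height cluster 15 led in its place. The 7 H3K27me3 peaks were 3 at a score of at least 100 and 4 in the shortened window. The difference in median PHF6 height between acetylated and other peaks (12.5) was 7.5 in the shortened window and 9.0 with a minimum score of 100. PHF6 density (15.4 per Mb) was 8.85 at a score of at least 100. The distal acetylated stretch kept 8 of its 9 H3K27ac peaks at that score, in an alternative added after seeing the data, and 0 PHF6 peaks. No paired analysis was possible because no antibody had replicates.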
